A study of Homo sapiens with 12 samples.

Results

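The genes described here are EGFR, which encodes the epidermal growth factor receptor, 4 of its ligand genes (AREG, EREG, HBEGF and TGFA), and MET and AXL, which encode 2 further receptor tyrosine kinases. They were chosen by name, with earlier results of these data known, and their probe sets were found by gene symbol in the array annotation. Of the 7 genes, 6 had a listed probe set, 19 probe sets in all, among 11963 genes tested. AREG was not analysed here. The cells were MDA-MB-231, an established human breast cancer line that lacks hormone receptors and has mesenchymal features. Cultures had been exposed for 24 h to the vehicle DMSO, to 5 uM SAHA, to 2.5 mM pargyline, or to both drugs at these doses. SAHA, or vorinostat, blocks histone deacetylases. Pargyline blocks monoamine oxidases and has been used against LSD1, a related enzyme that removes methyl groups from histones. There were 3 biological replicates of every treatment, hence 12 expression arrays. The labels do not say how the cultures were kept apart, so that p-values measure the spread between these samples.

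EGFR binds its ligands outside the cell, pairs with itself or with other ERBB receptors, and signals through the RAS-MAPK and PI3K-AKT cascades. Its ligands are made as membrane-anchored precursors that proteases of the ADAM family release. MET is the receptor of hepatocyte growth factor and AXL that of GAS6. Both can signal beside EGFR in tumour cells, and AXL is known for its high level in mesenchymal breast cancer lines.

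All 5 mesenchymal markers (VIM, CD44, FN1, CAV1 and MSN) lay above 7.06, which is the middle of the genes' mean log2 values. By their means over the 12 arrays, 2 of 7 luminal markers (KRT18 and GATA3) and 1 of 4 epithelial markers (CLDN4) did. In DMSO alone the luminal marker ERBB2 (8.28) and the epithelial marker EPCAM (8.42) lay above it too. The oestrogen receptor gene ESR1 (3.11 in DMSO), the progesterone receptor gene PGR (2.17) and the cadherin gene CDH1 (2.11) lay low. Of the measured leukocyte, endothelial and fibroblast markers 0 of 4, 0 of 3 and 0 of 6 lay above 7.06. Array medians ran from 5.15 to 5.38, and replicates correlated over probe sets with r from 0.998 to 0.999. A number of arrays this small limits the precision: over genes, the median SE of a group difference was 0.077. For the 6 genes analysed it ran from 0.06 (AXL) to 0.29 (EREG), with 0.15 for MET, 0.25 for TGFA and 0.27 for EGFR.

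A gene is said to have risen or fallen where limma's moderated test, with Benjamini-Hochberg adjustment over all genes, gave an adjusted p under 0.05. All values are log2 expression values, so that a difference of 1 is a doubling, and a level is compared only within a probe set. With SAHA, 3 of the 6 genes passed: EREG rose, and MET and AXL fell. Of all genes 46.2% passed with SAHA. With pargyline, 2 of the 6 passed, HBEGF and TGFA, and both rose, against 15.9% of all genes (8.48% higher and 7.45% lower). With both drugs 4 of the 6 passed: EREG and HBEGF rose, and MET and AXL fell. The share over all genes was 48.3%. EGFR passed in none of the 3. The probe sets used for the 6 genes were brighter than 70.9% to 96.9% of probe sets, while the shares over all genes include dim ones. Without genes below the median level, 2180 genes rose and 2312 fell with SAHA. In that fit 935 rose and 896 fell with pargyline, and 2251 and 2368 with both drugs. The share among brighter genes was thus higher, so no excess of the 6 genes can be read from these counts. In RNA from whole cultures, fewer cells with a gene and less of its RNA per cell cannot be told apart. The median difference of the 6 genes was -0.17 for SAHA, 0.32 for pargyline and 0.12 for the combination, against 0.00, -0.02 and -0.01 over all genes.

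**Figure D1:**
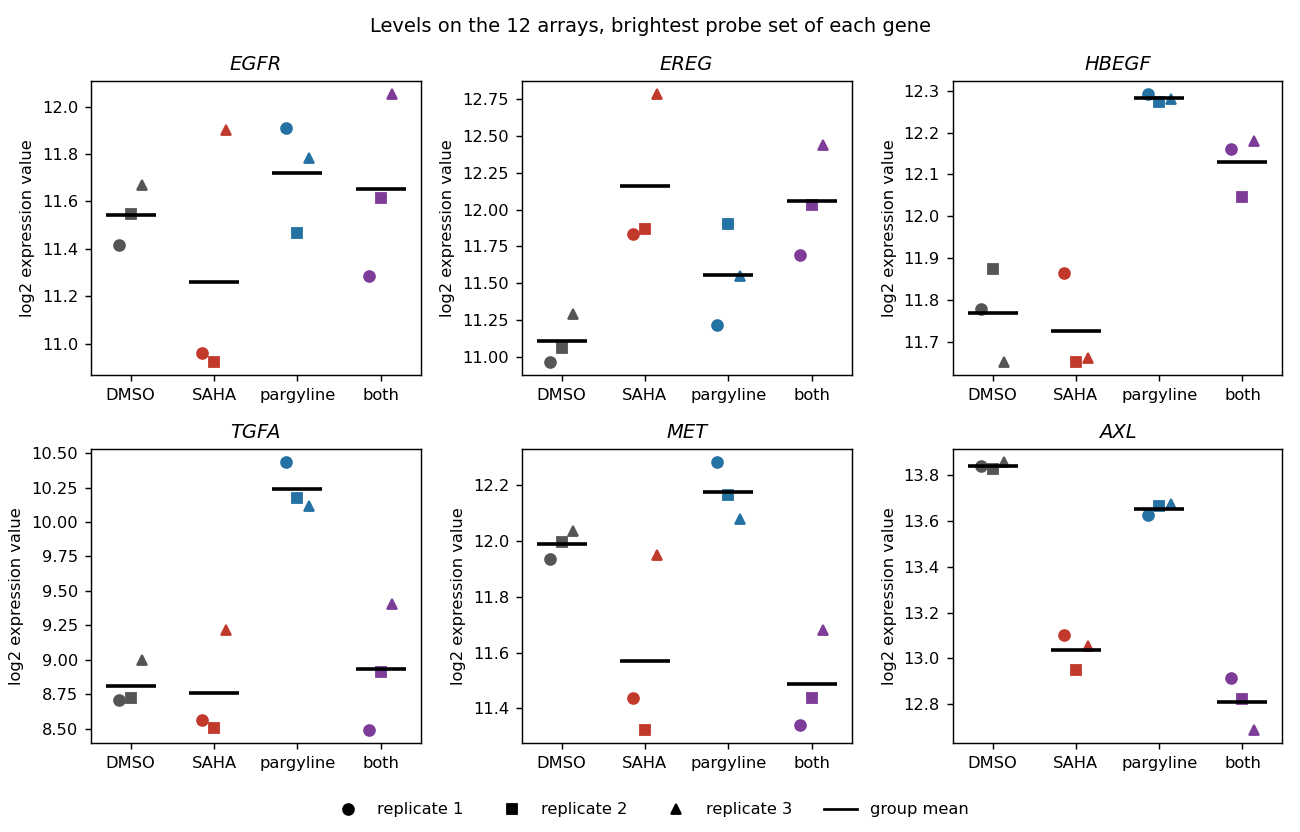
Log2 expression values on the 12 arrays (vertical axes, a scale of their own for each gene) by treatment (horizontal axes), with a symbol for each replicate number and a bar at the group mean. TGFA and HBEGF are highest on the 3 pargyline arrays, AXL is lowest on the arrays with SAHA, and replicate 3 lies above the others with SAHA and with both drugs for EGFR, EREG, TGFA and MET.

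Among the ligands, TGFA encodes transforming growth factor alpha, a ligand that binds EGFR alone among the ERBB receptors. It read 8.71, 8.72 and 9.001 in DMSO, and 8.56, 8.50 and 9.22 with SAHA. With pargyline it read 10.43, 10.17 and 10.12, and with both drugs 8.49, 8.91 and 9.41. The 3 pargyline arrays lay above all 9 others, and the other 3 groups overlapped. TGFA rose with pargyline by 1.43 ± 0.25 (SE, n = 3 arrays per group), or 2.70-fold, with an adjusted p of 0.00441 in limma. With both drugs it differed from DMSO by 0.13 (95% interval -0.43 to 0.68, adjusted p = 0.724) and from pargyline alone by -1.31 ± 0.25 (adjusted p = 0.00141). Thus the level with both drugs was 0.405 times that with pargyline alone, and pargyline added to SAHA gave a difference of 0.18 (adjusted p = 0.697).

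The test of whether pargyline acted on TGFA differently with and without SAHA is the interaction, the difference with both drugs minus the sum of the single differences. It was -1.26 ± 0.35 for TGFA (95% interval -2.04 to -0.47) and did not pass over all genes (limma, adjusted p = 0.0896). Of 21 alternative settings 4 gave a pass, with adjusted p from 0.0215 to 0.188 over all of them. The interaction passed without COMBO replicate 3, the array of that number with both drugs (-1.49, adjusted p = 0.0301). It also passed with the array of replicate 3 in SAHA and in both drugs left out, a setting chosen after the values had been seen (-1.26, adjusted p = 0.0215). Of the 6 genes 0 passed the interaction, against 3.72% of all genes. TGFA had the lowest unadjusted p of the 6, 0.00544, and the only one below 0.05.

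TGFA has 2 dimmer probe sets. Probe set 205015_s_at read 1.69 to 1.75 on the 9 arrays without pargyline alone, and 2.58, 2.17 and 3.39 with pargyline. Its difference of 0.99 ± 0.24 passed when every probe set was tested on its own (adjusted p = 0.0235), and with both drugs it read 0.99 lower than with pargyline (adjusted p = 0.00656). Probe set 211258_s_at read 3.11, 3.04 and 4.50 with pargyline and 2.79 to 2.97 elsewhere, and its difference from DMSO of 0.58 ± 0.31 did not pass (adjusted p = 0.306). So the pargyline arrays were the highest in all 3 probe sets. Both dimmer probe sets lie in the lower part of the array's range, above 14.5% and 42.2% of its probe sets.

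HBEGF encodes heparin-binding EGF-like growth factor, which also binds ERBB4. It read 11.78, 11.87 and 11.65 in DMSO, 11.86, 11.65 and 11.66 with SAHA, 12.29, 12.27 and 12.28 with pargyline, and 12.16, 12.05 and 12.18 with the combination. All 6 arrays with pargyline lay above all 6 without it. HBEGF rose with pargyline by 0.51 ± 0.07, or 1.43-fold (adjusted p = 0.00139), and with both drugs by 0.36 ± 0.07, or 1.28-fold (adjusted p = 0.0015). Against SAHA alone the combination gave a rise of 0.40 ± 0.07 (adjusted p = 0.00457). SAHA alone differed from DMSO by -0.04 (95% interval -0.20 to 0.11, adjusted p = 0.792). The interaction for HBEGF was -0.11 (95% interval -0.33 to 0.11, adjusted p = 0.687).

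A further HBEGF probe set, 38037_at, gave 0.53 ± 0.12 with pargyline (adjusted p = 0.0176) and 0.33 ± 0.12 with both drugs (adjusted p = 0.0439), close to the first. For the combination against SAHA it gave 0.39 ± 0.12, which did not pass (adjusted p = 0.0592). The last one, 222076_at, read between 1.74 and 1.84 on all 12 arrays, brighter than 8.23% of probe sets, and showed no difference that passed. Order by level within the brightest probe set ran from pargyline through both drugs to DMSO and SAHA. Neighbours in that order whose difference did not pass were pargyline and both drugs (-0.15, adjusted p = 0.107), and DMSO and SAHA. The groups with pargyline and with both drugs did not overlap, and their difference passed with array weights (-0.19, adjusted p = 0.0478) and with these groups fitted alone (-0.15, adjusted p = 0.0389).

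EREG encodes epiregulin, a ligand of EGFR and ERBB4. It read 10.97, 11.06 and 11.29 in DMSO and 11.83, 11.87 and 12.78 with SAHA. With pargyline it read 11.22, 11.90 and 11.55, and with both drugs 11.70, 12.03 and 12.44. The SAHA and combination arrays all lay above the DMSO arrays, while 1 pargyline array lay within the DMSO range. EREG rose with SAHA by 1.05 ± 0.29, or 2.08-fold (adjusted p = 0.012), and with both drugs by 0.95 ± 0.29, or 1.93-fold (adjusted p = 0.0194). With pargyline the difference was 0.45 (95% interval -0.19 to 1.09, adjusted p = 0.381). Adding pargyline to SAHA gave -0.11 (95% interval -0.75 to 0.54, adjusted p = 0.853).

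The rise of EREG with both drugs did not pass without DMSO replicate 1 (adjusted p = 0.0626), DMSO replicate 2 (0.0541) or COMBO replicate 3 (0.0743). That with SAHA passed with each of the 12 arrays left out in turn. EREG with SAHA against pargyline gave 0.60 ± 0.29 (adjusted p = 0.123), and passed once replicate numbers were blocked in the fit (0.0424). EREG has 1 probe set on the array, so no further reading was at hand.

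Among the receptors, EGFR itself did not pass in any of the 7 comparisons. It read 11.42, 11.55 and 11.67 in DMSO, 10.96, 10.92 and 11.90 with SAHA, 11.91, 11.47 and 11.78 with pargyline, and 11.29, 11.62 and 12.05 with the combination. All 4 groups overlapped, and the standard deviation was 0.55 with SAHA against 0.13 in DMSO. The differences from DMSO were -0.28 with SAHA (95% interval -0.90 to 0.33, adjusted p = 0.538), 0.18 with pargyline (-0.44 to 0.79, adjusted p = 0.75) and 0.11 with the combination (-0.51 to 0.72, adjusted p = 0.79). These intervals include a fall to 0.537 times the DMSO level with SAHA and a rise to 1.73 times with pargyline.

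For EGFR 1 array decided the SAHA value. Without SAHA replicate 3 the difference from DMSO was -0.60 (adjusted p = 0.0442), and that from pargyline -0.78 (adjusted p = 0.0139). With the replicate 3 arrays of both SAHA groups left out the adjusted p were 0.0112 and 0.00309. The next brightest EGFR probe set, 201984_s_at, read 8.999, 8.77 and 9.95 with SAHA, so that replicate 3 was again the high one, and its difference from DMSO was -0.33 ± 0.29 (adjusted p = 0.501). The other 4 EGFR probe sets had means of 2.51 or less, and 3 of them were brighter than only 7.14%, 2.88% and 2.66% of probe sets. None of the 6 passed in a comparison with DMSO.

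Replicate 3 was the highest of the 3 arrays both with SAHA and with both drugs for EGFR, EREG, TGFA and MET, 4 of the 6 genes. It was also the highest in DMSO for these 4 and AXL, 5 of the 6, and with pargyline for 1 of the 6. Where only the replicate 3 arrays with SAHA were left out, the DMSO one stayed in the comparison. Over all genes, the deviations of these 2 arrays from their group means correlated with r = 0.53, the highest among 18 pairs of equally numbered arrays, which ran from 0.08. Beside leaving arrays out, the replicate number was fitted as a block, which changed the call on EREG with SAHA against pargyline and no other call on the 6 genes.

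MET read 11.94, 11.996 and 12.04 in DMSO and 11.44, 11.32 and 11.95 with SAHA. With pargyline it read 12.28, 12.17 and 12.08, and with both drugs 11.34, 11.44 and 11.68. SAHA replicate 3 lay inside the DMSO range and the other 2 SAHA arrays below it, while the combination arrays were all below and the pargyline arrays all above. MET fell with SAHA by 0.42 ± 0.15, to 0.748 times the DMSO level (adjusted p = 0.0436), and with both drugs by 0.50 ± 0.15, to 0.706 times (adjusted p = 0.0181). With pargyline it differed by 0.19 (95% interval -0.15 to 0.52, adjusted p = 0.502). It was lower with both drugs than with pargyline alone (-0.69 ± 0.15, adjusted p = 0.00329).

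The call on MET with SAHA lay near the threshold. It was lost without any 1 of 9 arrays, all 3 of DMSO, all 3 of pargyline, SAHA replicate 1 or 2, or COMBO replicate 2 (adjusted p from 0.0548 to 0.162), and with DMSO and SAHA fitted alone (0.113). Without SAHA replicate 3, in contrast, adjusted p was 0.000867. With both drugs the call was lost without DMSO replicate 3 or COMBO replicate 1 or 2 (0.0534 to 0.0674). The 3 further probe sets of MET gave -0.71 ± 0.31, -0.49 ± 0.20 and -0.71 ± 0.24 with SAHA, all lower than in DMSO, and the last of these, 211599_x_at, passed (adjusted p = 0.0367). With both drugs 213816_s_at passed (-0.91 ± 0.31, adjusted p = 0.037), and 213807_x_at (-0.23, adjusted p = 0.414) and 211599_x_at (-0.50, adjusted p = 0.125) did not.

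AXL had the smallest standard error of the 6 genes. It read 13.84, 13.83 and 13.85 in DMSO, 13.10, 12.95 and 13.06 with SAHA, 13.62, 13.66 and 13.67 with pargyline, and 12.92, 12.82 and 12.69 with the combination. No 2 groups overlapped. AXL fell with SAHA by 0.80 ± 0.06, to 0.572 times the DMSO level (adjusted p = 1.82e-06), and with both drugs by 1.03 ± 0.06, to 0.489 times (adjusted p = 3.26e-07). The fall with both drugs was larger than with SAHA alone by 0.23 ± 0.06 (adjusted p = 0.0234), a call lost without SAHA replicate 1 (adjusted p = 0.0804), SAHA replicate 3 (0.0645) or COMBO replicate 2 (0.0648). It was also lost in the fit of these groups alone (0.125) and with both SAHA-treated replicate 3 arrays left out (0.109).

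With pargyline alone AXL differed from DMSO by -0.19 ± 0.06 (adjusted p = 0.0523), just short of the threshold. That value ran from an adjusted p of 0.0063 with the mean of its probe sets to 0.137 without Pargyline replicate 1. Without SAHA replicate 2, COMBO replicate 1 or COMBO replicate 3 it passed (0.0191 to 0.0446). The dimmer AXL probe set, 202685_s_at, read 9.10, 8.98 and 8.66 in DMSO, 7.07, 7.12 and 7.19 with SAHA, 8.47, 8.10 and 7.94 with pargyline, and 6.81, 6.45 and 6.47 with the combination. It gave larger differences in the same order, -1.79 ± 0.16 with SAHA, -0.74 ± 0.16 with pargyline and -2.34 ± 0.16 with the combination (adjusted p = 9.98e-06, 0.013 and 1.48e-06). The interaction for AXL was -0.04 (95% interval -0.22 to 0.14, adjusted p = 0.898).

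**Figure D2:**
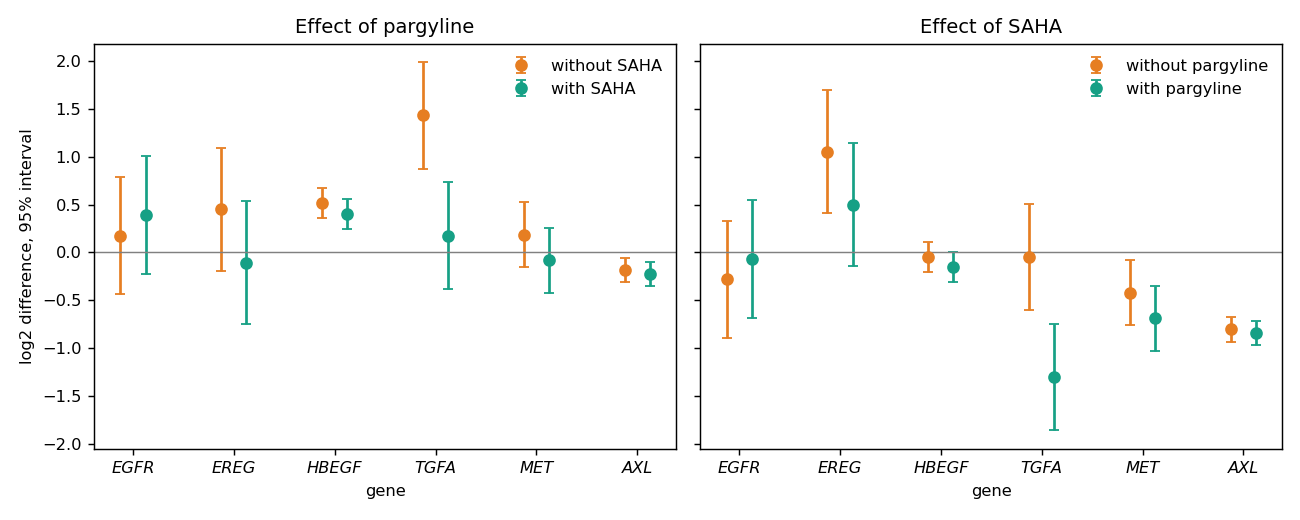
Log2 differences with 95% intervals (vertical axis) for the 6 genes (horizontal axis): left, pargyline against DMSO and against SAHA when added to it; right, SAHA against DMSO and against pargyline when added to it. For AXL and HBEGF the paired points lie close together, and for TGFA pargyline gave 1.43 without SAHA and 0.18 with it.

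SAHA was also set directly against pargyline. Of the 6 genes 4 passed, all 4 lower with SAHA, against 46.2% of all genes passing. EREG read higher with SAHA (0.60) but did not pass (limma, adjusted p = 0.123), and EGFR did not pass either. TGFA differed by -1.48 ± 0.25 (adjusted p = 0.000649), HBEGF by -0.56 ± 0.07 (9.59e-05), MET by -0.61 ± 0.15 (0.00723) and AXL by -0.62 ± 0.06 (1.12e-05). In the combination against SAHA 2 of 6 passed, HBEGF and AXL, the former higher and the latter lower, where 16.6% of all genes did (7.88% higher). In the combination against pargyline 3 of 6 passed, TGFA, MET and AXL, all lower, where 47.5% of all genes did. These shares include dim genes too. Without genes below the median level, 2165 genes were higher and 2233 lower with SAHA than with pargyline. In that fit 883 were higher and 1000 lower in the combination against SAHA, and 2193 and 2303 against pargyline. No excess of the 6 genes can be read from these counts either.

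**Figure D3:**
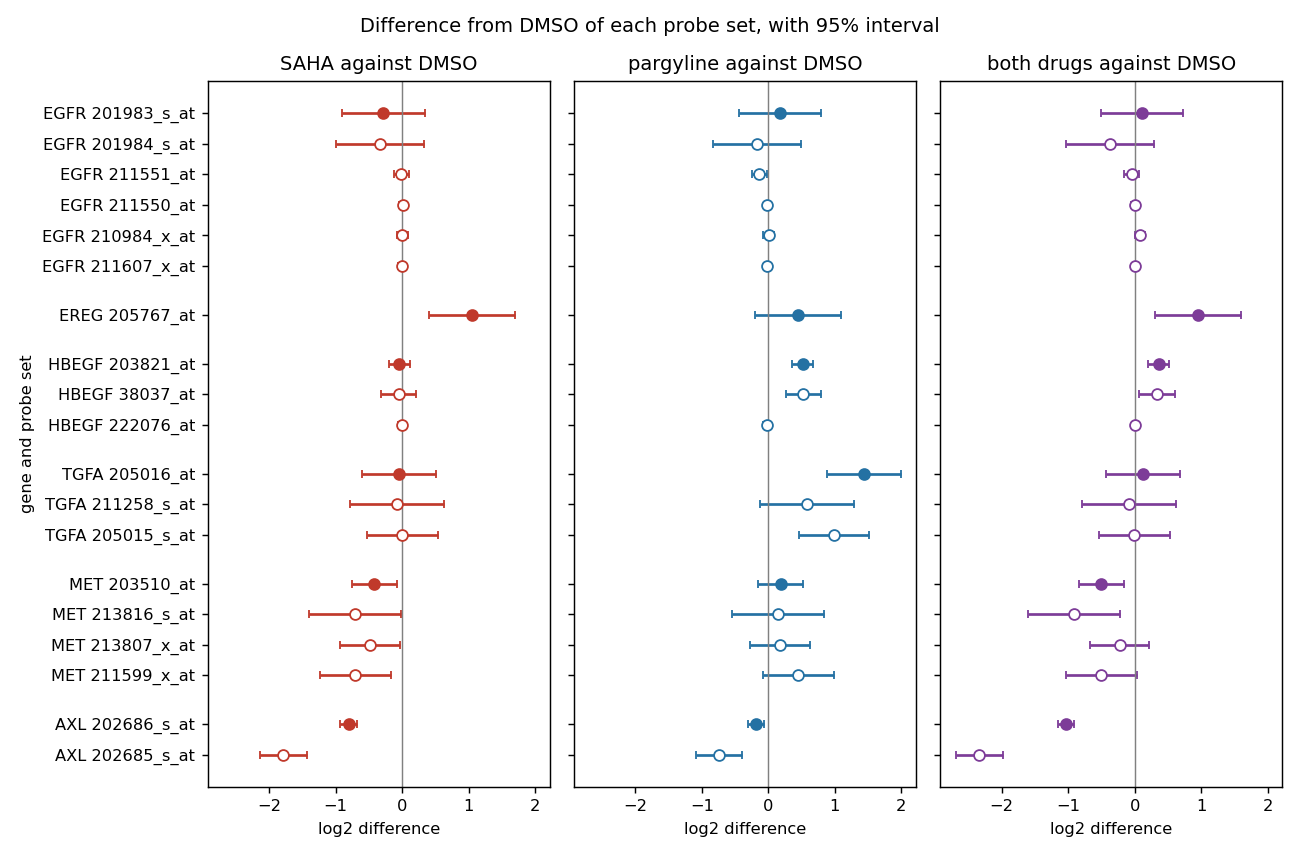
Log2 difference from DMSO with its 95% interval (horizontal axes) for each of the 19 probe sets of the 6 genes (vertical axis), in 1 panel per treatment; filled points are the probe set used for the gene. Both AXL probe sets lie below 0 with SAHA, all 3 of TGFA lie above 0 with pargyline, and the narrow intervals at 0 belong to dim probe sets.

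Centring each array on its median moved the median gene from 0.00 to -0.10 with SAHA, from -0.02 to -0.15 with pargyline and from -0.01 to -0.17 with the combination. TGFA and HBEGF still passed with pargyline (1.30 and 0.38), as did EREG (0.95), MET (-0.52) and AXL (-0.91) with SAHA. The rise of HBEGF with both drugs shrank from 0.36 to 0.20 (adjusted p = 0.0223), and AXL passed with pargyline as well (-0.32, adjusted p = 0.00722).

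The stretch of 250 bases before the first listed start of each gene was read from RefSeq (GRCh38.p14), and 3 are shown, for the genes with the largest rise with SAHA, the largest rise with pargyline and the largest fall. Capitals mark letters that match a searched motif on either strand: the TATA box TATAAA, the CCAAT box CCAAT, the GC box GGGCGG, the TEAD motif GGAATG, the AP-1 motif TGANTCA and the cyclic AMP response element TGACGTCA.
EREG, chr4:74364895-74365144, plus strand: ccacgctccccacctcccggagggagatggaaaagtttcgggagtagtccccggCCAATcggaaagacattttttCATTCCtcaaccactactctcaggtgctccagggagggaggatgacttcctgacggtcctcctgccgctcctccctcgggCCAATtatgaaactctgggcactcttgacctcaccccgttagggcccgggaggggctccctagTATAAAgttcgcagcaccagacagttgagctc
TGFA, chr2:70553827-70554076, minus strand: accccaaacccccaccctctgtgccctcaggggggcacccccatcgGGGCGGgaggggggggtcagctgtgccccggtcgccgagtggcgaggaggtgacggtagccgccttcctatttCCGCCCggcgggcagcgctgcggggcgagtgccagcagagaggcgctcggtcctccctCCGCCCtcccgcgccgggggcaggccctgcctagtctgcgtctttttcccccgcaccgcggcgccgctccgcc
AXL, chr19:41218973-41219222, plus strand: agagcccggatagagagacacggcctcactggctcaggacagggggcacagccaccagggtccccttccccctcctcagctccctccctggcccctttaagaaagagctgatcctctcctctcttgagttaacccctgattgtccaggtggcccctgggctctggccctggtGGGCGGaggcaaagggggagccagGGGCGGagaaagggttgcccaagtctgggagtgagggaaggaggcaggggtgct
In the EREG stretch a TATA box lies 32 bases before the start, with 2 CCAAT boxes and 1 TEAD motif. The TGFA stretch holds 3 GC boxes and the AXL stretch 2, and neither holds a match to the other motifs. Over 35114 promoters of this length, 10.7% held a TATA box, 32% a CCAAT box, 42.6% a GC box, 11.9% a TEAD motif, 6.57% an AP-1 motif and 1.65% a cyclic AMP response element. The first listed starts of HBEGF, EGFR and MET had 5, 2 and 2 GC boxes and no match to the others. Over first starts, 58% of the EREG stretch was G or C with 11 CpG, which are also the medians of all promoters, against 64.4% to 76.4% in the other 5 genes. AXL had 4 CpG at 64.4%, and TGFA 27 at 75.6%. The second listed starts of EGFR, TGFA and AXL differed from the first: that of EGFR had 38.8% G or C, 1 CpG, 2 AP-1 motifs, 2 TATA boxes and 1 TEAD motif, that of AXL 54.4% and 1 TEAD motif, and that of TGFA 64% and no match. These matches are letters only, and no binding was measured.

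The nearest measured coding genes on each side were compared as well. EGFR on chromosome 7 lies between COBL, with 3 coding genes in between, and LANCL2, its direct neighbour, which both changed with SAHA while EGFR did not pass. COBL rose from a dim mean of 2.38 in DMSO to 6.59 (adjusted p = 1.95e-07), a rise whose size is likewise not exact, and LANCL2 fell by 3.02 ± 0.14 (adjusted p = 1.6e-07). MET, on the same chromosome, lies between CAV1, which encodes caveolin-1 and fell by 1.38 ± 0.11 with SAHA, and CAPZA2 (0.31 ± 0.12, adjusted p = 0.0644). Beside AXL on chromosome 19, HNRNPUL1 fell by 1.12 ± 0.16 with SAHA and CYP2F1, at 1.37 in DMSO, differed by -0.01. Beside TGFA on chromosome 2, ADD2 gave -0.30 with pargyline (adjusted p = 0.227) and SNRPG fell by 0.21 ± 0.06 (adjusted p = 0.0468), where TGFA rose. EREG on chromosome 4 has MTHFD2L and the ligand gene BTC as its measured neighbours, which with SAHA gave -0.43 and 0.00. Beside HBEGF on chromosome 5, PFDN1 gave -0.09 with pargyline, and TMCO6, beyond 9 further coding genes, fell by 0.67 ± 0.13.

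Patterns were compared among 6421 genes with a highest group mean above the median level of 7.06. The measure was the root mean square of the gaps in the 3 differences from DMSO. The 2 closest genes are given for each gene here that passed against DMSO. For TGFA they were ADAM19 (0.22), a membrane protease, and LTBP3 (0.23), which binds latent TGF-beta. For AXL they were XPO7 (0.02) and ECI1 (0.03), for HBEGF RETSAT (0.03) and LGALS3 (0.05), for MET ENTREP3 (0.05) and CCNJ (0.06), and for EREG KLHDC2 (0.04) and MERTK (0.06). ADAM19 rose with pargyline by 1.12 ± 0.11 (adjusted p = 0.000246) and differed from DMSO by 0.18 with both drugs (adjusted p = 0.199). These gaps describe the pattern over the same 12 arrays and carry no test.

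**Figure D4:**
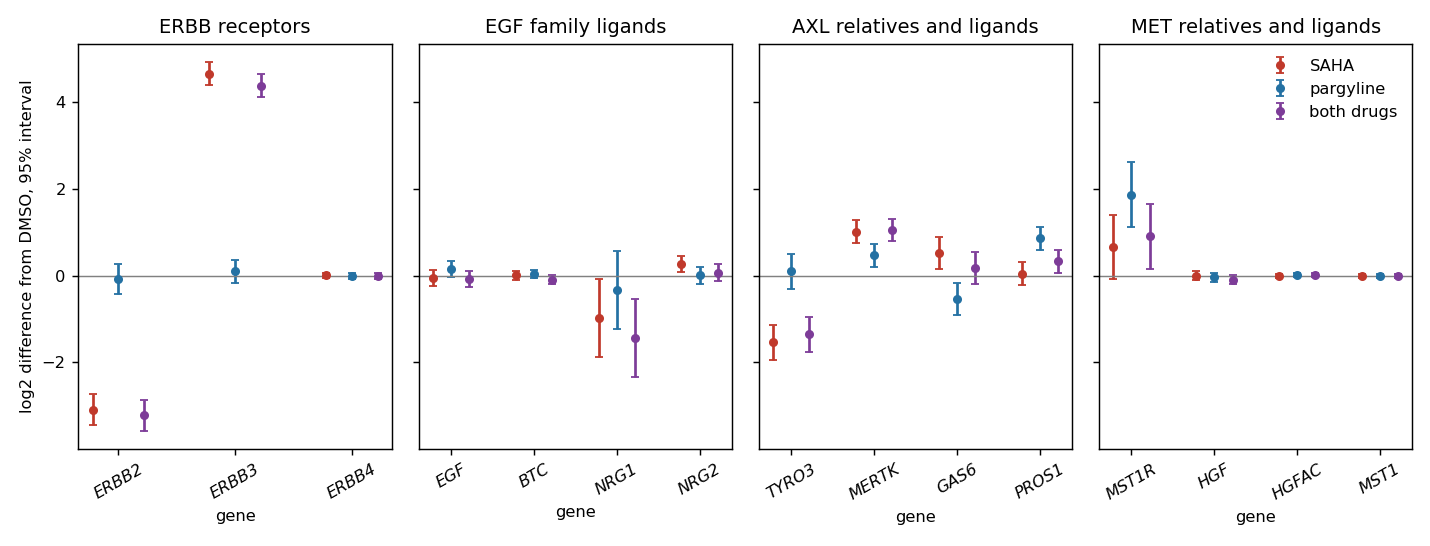
Log2 difference from DMSO with its 95% interval (vertical axis) for receptors and ligands related to EGFR, AXL and MET (horizontal axes), with a colour for each treatment. With SAHA, ERBB2 lies at -3.09 and ERBB3, which is dim in DMSO, at 4.65, and TYRO3 and MERTK lie on opposite sides of 0.

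Of the 3 other ERBB receptors, the partners of EGFR, 1 rose and 1 fell with SAHA, where 46.2% of all genes passed. ERBB2, which has no ligand of its own and pairs with the other ERBB receptors, fell from a mean of 8.28 in DMSO to 5.19 with SAHA (-3.09 ± 0.16, adjusted p = 2.34e-07). ERBB3, a receptor of neuregulins with little kinase activity, rose from 2.68, 2.84 and 2.95 in DMSO to 7.43, 7.60 and 7.38 (adjusted p = 5.21e-09). Its DMSO level was as dim as that of ESR1, and the values used here carry no detection call, so that the size of this rise is not exact. ERBB4 read 2.42 to 2.44 in all groups and did not pass. With pargyline 0 of these 3 passed, where 15.9% of all genes did. Of the 4 other measured EGF family ligands, the neuregulin gene NRG1 fell with both drugs (12.13 to 10.69, -1.44 ± 0.40, adjusted p = 0.0126). Its replicate 3 stood apart here too, with 10.76, 10.87 and 11.82 with SAHA and 9.89, 10.57 and 11.62 with both drugs. NRG2, at a dim 3.51 in DMSO, rose with SAHA (0.26 ± 0.09, adjusted p = 0.0294), though the 2 groups overlapped. With both drugs it read 3.58 and did not pass against DMSO (adjusted p = 0.559). EGF and BTC, at 2.82 and 2.91 in DMSO, did not pass against DMSO.

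Of 8 measured ligands and relatives of MET and AXL, 2 rose and 1 fell with SAHA (37.5%, against 46.2% of all genes), 3 rose and 0 fell with pargyline (37.5% against 15.9%), and 3 rose and 1 fell with both drugs (50% against 48.3%). AXL's relatives went apart: TYRO3 fell with SAHA by 1.54 ± 0.18 (adjusted p = 5.45e-05), as AXL did, and MERTK rose by 1.01 ± 0.12 (adjusted p = 5.2e-05). The AXL ligand GAS6 rose with SAHA by 0.52 ± 0.16 (adjusted p = 0.0259), and PROS1, a ligand of TYRO3 and MERTK, rose with pargyline by 0.86 ± 0.12 (adjusted p = 0.00161). MST1R, the closest relative of MET, rose with pargyline by 1.87 ± 0.33 from a dim 3.39 (adjusted p = 0.00512). The MET ligand HGF read 3.03 in DMSO and did not pass against DMSO.

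Downstream of the receptors, lists were described by their counts and their median differences, which over all genes were 0.00 with SAHA and -0.02 with pargyline. The shares of all genes that passed were 46.2% with SAHA, 15.9% with pargyline and 48.3% with the combination, and each list's share stands beside these. The lists were chosen with earlier results of these data known, so their shares describe the lists and carry no test. Of 15 ligand sheddases and regulators of HGF activation, 1 rose and 4 fell with SAHA, and 3 rose and 0 fell with pargyline (33.3% and 20% passing, with list medians of -0.02 and 0.20). Of 17 adaptors and members of the RAS-MAPK cascade, 5 rose and 5 fell with SAHA (58.8%, median 0.00), and 4 rose and 1 fell with pargyline (29.4%). With SAHA, SRC fell by 2.31 ± 0.14 and GRB2 rose by 0.80 ± 0.07. Of 13 genes of the PI3K-AKT and STAT arm, 8 rose and 4 fell with SAHA (92.3%, median 0.29), and 0 rose and 1 fell with pargyline (7.69%). With SAHA, PIK3CD rose by 2.12 ± 0.15 and STAT3 by 0.99 ± 0.10, while STAT5B fell by 1.37 ± 0.13. Of 23 receptor inhibitors and turnover genes, 11 rose and 3 fell with SAHA (60.9%, median 0.27), and 2 rose and 0 fell with pargyline (8.7%). CBLB, a ubiquitin ligase that takes down activated receptors, rose by 2.26 ± 0.13 with SAHA, 1.31 ± 0.13 with pargyline and 2.83 ± 0.13 with the combination. Of 15 MAPK output genes, 5 rose and 6 fell with SAHA, 4 rose and 2 fell with pargyline, and 6 rose and 6 fell with both drugs (73.3%, 40% and 80%, with medians of -0.29, 0.22 and -0.41). DUSP5 (2.27 ± 0.05) and EGR1 (2.12 ± 0.27) rose, and FOSL1 (-2.16 ± 0.11) and CCND1 (-1.24 ± 0.32) fell with SAHA, with adjusted p from 2.37e-09 to 0.00899.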

How the data were processed

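Total RNA from 12 MDA-MB-231 cultures was measured on oligonucleotide expression arrays. The deposited values are log2 expression values for 22277 probe sets, which the authors made with RMA per the submitters' processing notes; its version, and whether the arrays were normalized together, are not given in the sources used here. They were used as deposited. The annotation lists 19064 of them for 1 gene and 1043 for several; 62 were controls and 2108 had no listing. Gene names come from the platform annotation, and each gene was taken by its brightest probe set over the 12 arrays.

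A mean per group was fitted to all 12 arrays with limma 3.58.1 in R 4.3.3 (lmFit, eBayes; 8 residual degrees of freedom), with 7 two-sided comparisons adjusted over 11963 genes. The procedure was tested on simulated data with independent errors on every array, so that test does not cover an effect shared by equally numbered arrays. The genes and the pathway lists were chosen with earlier results of these data known. Further genes were named by rule: up to 4 per list with the largest difference from DMSO among those that passed, the 2 nearest in pattern, and the measured neighbours on each side. GAS6, NRG2, EGF, BTC, ERBB4 and HGF were named as members of the 3 lists of relatives. The labels call replicates biological but do not say whether equal numbers share a culture day. Deviations of equally numbered arrays correlated over 0.1 in all 3 pairs for SAHA with the combination (0.26 to 0.53) and for DMSO with pargyline (0.12 to 0.27). Of all 18 such pairs 13 did, against 2 of 36 pairs of arrays with other numbers. The main fit left the replicate number out. Alternatives were quantile normalization, array centring, a filter on dim genes, the mean of or every probe set, a replicate block, array weights, a trended robust prior, the compared groups alone and leaving out arrays.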

Additional observations from a re-analysis of the deposited data

Results flagged for a closer look

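The interaction, which asks whether pargyline acted differently with and without SAHA, was looked at for the 6 genes and the other named genes, 68 in all, and 5 passed in limma over all genes. Most of the named genes were picked by their differences on these arrays, so this count is not comparable with the share over all genes. For ADAM19 the interaction was -0.67 ± 0.15 (adjusted p = 0.0412): its means were 7.74 (DMSO), 7.48 (SAHA), 8.86 (pargyline) and 7.92 (combination). For SRC, a kinase that several growth factor receptors recruit, it was -1.01 ± 0.20 (adjusted p = 0.0266): SRC rose with pargyline alone by 0.87 ± 0.14, while pargyline added to SAHA gave -0.14 ± 0.14 (adjusted p = 0.562). For DUSP5, a phosphatase of ERK, it was -0.47 ± 0.07 (adjusted p = 0.0102): pargyline gave a rise of 0.26 ± 0.05 without SAHA and a fall of 0.21 ± 0.05 with it. For KLHDC2, nearest to EREG in pattern, it was -0.56 ± 0.07 (adjusted p = 0.00525), with means of 11.98 (DMSO), 13.09 (SAHA), 12.40 (pargyline) and 12.95 (combination). For ADD2, the neighbour of TGFA, it had the opposite sign, 0.92 ± 0.20 (adjusted p = 0.0399): pargyline gave -0.30 ± 0.14 without SAHA (adjusted p = 0.227) and a rise of 0.62 ± 0.14 with it (adjusted p = 0.0165).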

How the results depend on the processing

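Differences of a gene were read from its brightest probe set or the mean of its probe sets. Of 18 that passed, 0 reversed in any setting, and 14 passed in every setting. Those that did not were EREG and MET with both drugs against DMSO, MET with SAHA against DMSO, and AXL in the combination against SAHA. Dimmer probe sets on their own are not counted there, and some did not pass in limma. Among these were TGFA 211258_s_at with pargyline (adjusted p = 0.306) and HBEGF 38037_at in the combination against SAHA (0.0592). MET 213807_x_at in the combination against pargyline (0.15) was another. The number of genes passing moved by more than 1.5 times in 2 comparisons. In the combination against SAHA it was 2, but 1 with these groups fitted alone and 1 with both SAHA-treated replicate 3 arrays left out, a setting added after the values had been seen. In the interaction it was 0, but 1 (TGFA) without genes below the median level, with array weights and with those 2 arrays left out. With single arrays left out it ran from 2 to 4 for SAHA, 2 to 3 for pargyline and 3 to 4 for both drugs against DMSO, 1 to 2 for the combination against SAHA, 3 to 3 against pargyline, 4 to 5 for SAHA against pargyline, and 0 to 1 for the interaction. Differences that did not pass changed sign as follows. EGFR gave -0.026 with pargyline from the mean of its probe sets, and with both drugs -0.048 with array centring, -0.035 from that mean and -0.092 without the replicate 3 arrays. TGFA with both drugs gave -0.030 with centring and -0.11 without those arrays. In the combination against SAHA, EREG gave 0.010 without those arrays, and MET 0.047 from the mean of probe sets and 0.0083 without those arrays. The interaction of AXL gave 0.038 with centring, 0.076 from the mean of probe sets and 0.031 without those arrays. With single arrays left out the ranges that spanned 0 were -0.092 to 0.29 for EGFR and -0.11 to 0.35 for TGFA with both drugs, -0.27 to 0.11 for EGFR in the combination against pargyline, -0.30 to 0.20 for EREG, -0.21 to 0.11 for MET and -0.059 to 0.40 for TGFA in the combination against SAHA, -0.11 to 0.0093 for HBEGF and -0.28 to 0.079 for TGFA with SAHA, and -0.093 to 0.021 for the interaction of AXL. The replicate block changed the call on EREG for SAHA against pargyline (adjusted p = 0.0424) and no other call on the 6 genes; the numbers of genes passing with it were 3, 2, 4, 2, 3, 5 and 0 in the order of comparisons above, against 3, 2, 4, 2, 3, 4 and 0. Array centring gave 2385 higher and 4070 lower genes with SAHA (2754 and 2768 as deposited), 872 and 6168 with pargyline (1014 and 891), 2503 and 7519 with both drugs (2903 and 2872), 715 and 1347 in the combination against SAHA (943 and 1042), and 220 and 215 for the interaction (153 and 292); the cause was not tested. From the mean of its probe sets, dim ones included, HBEGF gave 0.34 with pargyline and 0.24 with both drugs, and AXL -1.295 with SAHA, -1.68 with both drugs and -0.39 in the combination against SAHA, all still passing. The limits of the data are 3 arrays a group, 1 probe set for EREG, and dim probe sets of EGFR, HBEGF and TGFA near the floor, where a change may not be visible.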

Other observations

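Of 30 other growth factor receptor kinases, 7 rose and 2 fell with SAHA, 2 rose and 0 fell with pargyline, and 6 rose and 4 fell with both drugs (30%, 6.67% and 33.3% passing, each below the 46.2%, 15.9% and 48.3% of all genes). The levels of all 30 are not given here, and a change in a dim gene may not be visible. FGFR4 rose from a mean of 4.99 in DMSO to 9.05 with SAHA (4.05 ± 0.25, limma adjusted p = 7.24e-07), FGFR1 by 1.44 ± 0.11 and FGFR3 by 1.38 ± 0.22, and the orphan receptor gene ROR1 fell by 1.53 ± 0.18.

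YAP and TEAD proteins regulate transcription, and AXL is a known target gene of theirs. Of 10 such factors and target genes, 7 rose and 2 fell with SAHA, and 1 rose and 0 fell with pargyline (90% and 10% passing, against 46.2% and 15.9% of all genes, medians 0.82 and 0.11 against 0.00 and -0.02 over all genes). The list was chosen with earlier results of these data known, so these shares carry no test. The targets ANKRD1 (1.91 ± 0.28) and CCN2 (1.61 ± 0.07) and the factor TEAD1 (1.497 ± 0.17) rose with SAHA, while YAP1 fell by 2.11 ± 0.15, with adjusted p from 1.45e-07 to 0.000286.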
